A study of Mus musculus with 6 samples.

Results

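The interleukin-1 and interleukin-18 system was examined as 10 genes chosen by name, of 11092 genes with a named probe. They were the ligands Il1b, Il18 and Il33, the protease Casp1, the receptor chains Il1r1 and Il1rap, and the inhibitors Il1r2, Il1rn, Sigirr and Il18bp. The samples were whole B16 melanomas, tumors of a transplanted mouse melanoma line, grown in C57BL/6 mice of the same strain that had received 400000 cells each. All tumors were taken at day 8. The large group held 3 tumors of 70 to 80 mm2 and the small group 3 tumors of 10 to 20 mm2, each on an Illumina bead array. No other allele or treatment was named for either group, and all tumors came from 1 cell line. The tumors are described as cut free of normal tissue, yet keratinocyte and muscle genes were bright on several arrays. The log2 intensity of Krt14, a keratinocyte gene, ranged from 4.36 (small replicate 1) to 14.6 (large replicate 1). Acta1, a skeletal muscle gene, had means of 12.6 for large and 13.8 for small tumors. Whether normal tissue remained was not tested. The number of mice and inoculations behind each group was not stated, so each p-value reflects only how these samples vary, which may be technical.

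Interleukin-1 beta and interleukin-18 are made as inactive precursors that caspase-1 cuts inside the multiprotein complexes called inflammasomes. Interleukin-1 signals through a receptor chain and an accessory chain to NF-kB, and it is held back by a receptor antagonist and by a decoy receptor that binds it without signalling. Interleukin-18, which drives T and NK cells to make interferon-gamma, is neutralized in the fluid around cells by its binding protein. The series takes its title from interleukin-1 alpha and resistance to immunotherapy in melanoma, and the Il1a gene was not analysed here.

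In large tumors Casp1 was lower, and Il1rap and Sigirr were higher, than in small tumors. The other 7 members did not pass the test. On the log2 scale Casp1 fell by 1.29 ± 0.21, Il1rap rose by 0.64 ± 0.11 and Sigirr rose by 0.80 ± 0.13 (SE of the fit, n = 3 tumors each). All 10 members had a probe detected on at least 3 of the 6 arrays and were tested (limma, Benjamini-Hochberg adjustment over 10523 genes, called at an adjusted p under 0.05). The 3 calls stand against a background of 2.47% of all genes tested called either way, 0.789% higher and 1.68% lower. The split of calls over all genes was 83 higher and 177 lower, and 96 higher and 66 lower when arrays were scaled to a common median, or 182 and 226 with no background correction. The median log2 fold change of the members was -0.43, beside -0.000957 for all genes. The calls depended on the arrays used, for all genes as well as for the members. With large replicate 1, large replicate 2, large replicate 3, small replicate 1 or small replicate 3 left out, 0 members were called. Over all genes those fits called 0, 29, 0, 85 and 1. Without small replicate 2, 1 member, Casp1, and 300 genes were called, beside 260 genes with all arrays (limma).

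**Figure D1:**
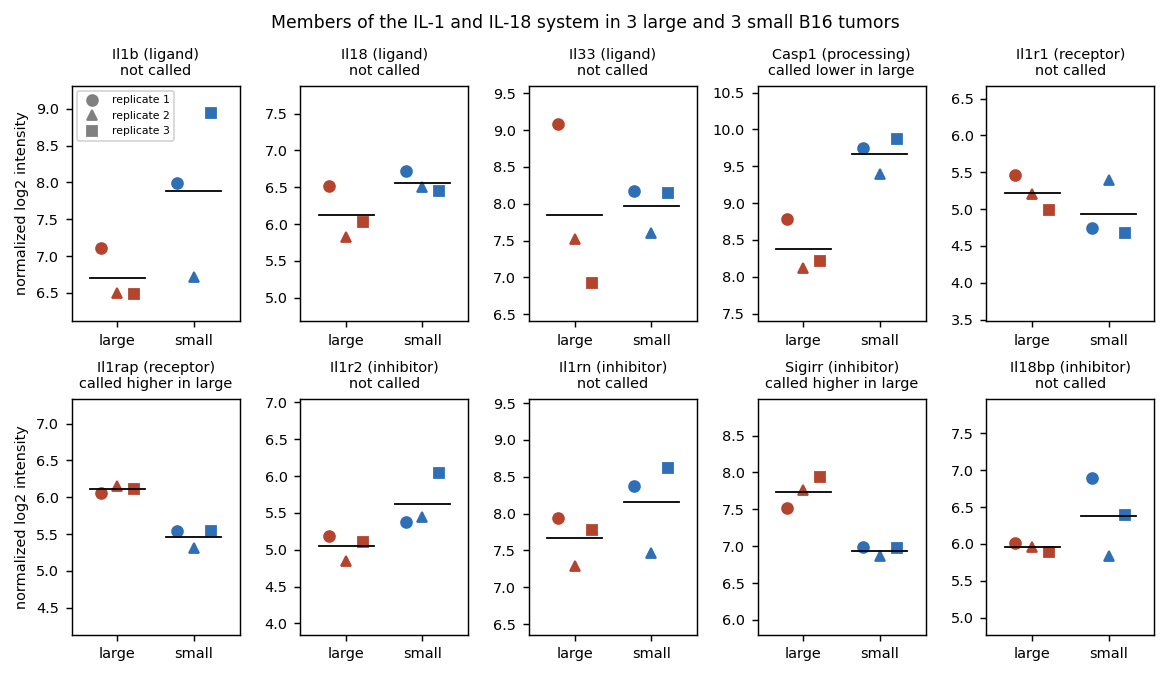
Normalized log2 intensity of each member (y axis, a window of equal height in every panel) in the large and small tumors (x axis). Each point is 1 array, its shape the replicate number, and the line is the group mean. Casp1, Il1rap, Sigirr and Il1r2 show no overlap between groups, while Il1b in small tumors spans 6.72 to 8.94.

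The promoters of Casp1 and Il1rap, a member that fell and one that rose, are shown to compare their bases. Il1rap was chosen for printing after its values were seen. Each run covers 250 bases before the annotated start and 50 after it, on the gene's strand, from RefSeq (GRCm38.p6), and capitals mark CpG dinucleotides. The first lies at chr9:5298267-5298566 and the second at chr16:26581455-26581754, both on the + strand.
Casp1: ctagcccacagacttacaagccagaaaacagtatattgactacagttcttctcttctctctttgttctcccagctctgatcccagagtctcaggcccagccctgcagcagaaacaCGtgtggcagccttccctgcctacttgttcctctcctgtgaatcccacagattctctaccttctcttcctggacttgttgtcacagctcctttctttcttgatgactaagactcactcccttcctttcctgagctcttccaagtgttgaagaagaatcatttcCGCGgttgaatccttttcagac
Il1rap: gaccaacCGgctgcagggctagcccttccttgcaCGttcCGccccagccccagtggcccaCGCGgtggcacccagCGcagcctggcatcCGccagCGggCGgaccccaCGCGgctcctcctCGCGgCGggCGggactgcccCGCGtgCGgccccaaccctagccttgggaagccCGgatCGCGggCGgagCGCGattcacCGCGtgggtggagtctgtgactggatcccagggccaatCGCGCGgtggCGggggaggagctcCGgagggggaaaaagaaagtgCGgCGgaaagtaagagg

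The Casp1 promoter held 3 CpG and 48% G or C, while that of Il1rap held 33 CpG and 72% G or C. The median of 32851 mouse promoters of the same length, a set that does not cover every chromosome, was 7 CpG. Of them, 8.56% held at least as many as Il1rap. Promoters were at hand for 9 of the 10 members. Both strands of all 13 were searched for TTCNNNGAA, the letters of a gamma-activated site bound by STAT factors, and for GAAANNGAA, a core of the interferon-stimulated response element. The first was found once, at Il1r2 (TTCAAGGAA), and it occurs in 8.3% of those 32851 promoters. The second was found once, at Il1rap (GAAAAAGAA, from 20 to 28 bases after the start), and it occurs in 8.56%. Neither was found in these windows of Casp1 or Il18bp. A match or its absence is a description of these letters only.

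Casp1 encodes the protease that matures interleukin-1 beta and interleukin-18. Its normalized log2 intensity (probe ILMN_1247592) was 8.78, 8.12 and 8.22 in large replicates 1 to 3 and 9.75, 9.39 and 9.87 in small replicates 1 to 3. Every small tumor lay above every large one. The fall was 2.45-fold (adjusted p = 0.0399, limma), with a 95% interval of -1.80 to -0.79 on the log2 scale. The signals as deposited were 624, 438 and 421 in large tumors and 568, 743 and 967 in small ones. On that scale large replicate 1 lay above small replicate 1, a dim array with a median signal of 104 beside 114 to 128 on the others. The call ended when arrays were scaled to a common median (-0.90, adjusted p = 0.0801), which also moved the median of all genes to 0.34, so that Casp1 lay at -1.24 relative to it. It also ended when any array but small replicate 2 was left out (adjusted p = 0.064 to 0.144), and the log2 fold change stayed between -1.50 and -1.17 whichever array was left out.

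Il1b encodes interleukin-1 beta, a main inflammatory cytokine of activated myeloid cells. Its log2 intensity was 7.11, 6.49 and 6.49 in large tumors and 8.00, 6.72 and 8.94 in small ones. Small replicates 1 and 3 lay above all large tumors, and small replicate 2 lay below large replicate 1. The log2 fold change was -1.19 ± 0.53 (adjusted p = 0.242, limma), with an interval of -2.44 to 0.07. The SD was 1.11 (n = 3) in small and 0.36 (n = 3) in large tumors. The log2 fold change was -1.77 without small replicate 2 and -0.66 without small replicate 3.

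Il18, the interferon-gamma inducing ligand, had 2 named probes, and they differed in sign. The brighter probe was detected on all 6 arrays, with log2 intensities of 6.51, 5.83 and 6.03 in large tumors and 6.73, 6.51 and 6.45 in small ones. Large replicate 1 overlapped the small group and the other large tumors lay below it. The log2 fold change was -0.44 ± 0.19 (adjusted p = 0.234, limma). The dimmer probe, detected on 3 arrays, was at 0.15 ± 0.19.

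Il33 encodes a ligand stored in the nucleus of epithelial, endothelial and stromal cells and released on damage. Its log2 intensity was 9.08, 7.52 and 6.92 in large tumors and 8.17, 7.60 and 8.15 in small ones. The highest and the lowest of the 6 values both came from large tumors. The log2 fold change was -0.13 ± 0.52 (adjusted p = 0.914, limma), with an interval of -1.37 to 1.11 that spans rises and falls of over 2-fold. It was -0.75 without large replicate 1 (adjusted p = 0.18), and its sign turned without large replicate 2 (0.03) or large replicate 3 (0.33), and with median scaling (0.24). Median scaling also moved the median of all genes to 0.34, and relative to that Il33 was at -0.10. Keratinocyte markers, centred on their mean over all arrays, stood at 2.82, -0.27 and -2.93 in large replicates 1 to 3 and at -3.61, 1.77 and 2.22 in the small ones. In large tumors Il33 had the same order of replicates as these markers and as the neutrophil, fibroblast, endothelial and mast cell markers. In small tumors it had the order of the neutrophil, the macrophage and monocyte, and the dendritic cell markers, and not that of the keratinocyte markers. Of the marker lists, only the neutrophil markers had the order of Il33 in both groups. That order rests on a small gap between small replicates 1 and 3 (8.17 and 8.15). With this pair exchanged, the fibroblast and endothelial markers would have the order of Il33 in both groups, and the neutrophil markers would not. The part of these cells in the Il33 values was not tested.

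Il1rap encodes the accessory chain that the interleukin-1, interleukin-33 and interleukin-36 receptors share. It had 4 named probes, 3 annotated to 1 RefSeq transcript and 1 to another. The brightest, ILMN_2740464, had log2 intensities of 6.06, 6.16 and 6.11 in large tumors and 5.55, 5.31 and 5.54 in small ones. Every large tumor lay above every small one, and the rise was 1.56-fold (adjusted p = 0.0415, limma). The probe of the other transcript, ILMN_1243228, was at 5.69, 5.65 and 6.04 in large tumors and 4.94, 5.17 and 4.98 in small ones. Its groups did not overlap either, and with every kept probe tested on its own it rose by 0.76 ± 0.15 (adjusted p = 0.0469). In that fit 2.91% of 19120 probes were called, 1.28% higher and 1.64% lower. ILMN_2740465 did not overlap between groups and was at 0.54 ± 0.14 without passing (adjusted p = 0.0828, limma). The last, ILMN_1233678, was detected on 2 large and no small arrays and was not tested. Its groups overlapped. Large replicate 1 did not detect it either, so no bound on its fold is given.

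The Il1rap signals were close to background. The deposited signals of the brightest probe were 169, 185 and 173 in large tumors and 116, 131 and 138 in small ones, beside array medians of 104 to 128. With no background correction the log2 fold change was 0.24 (adjusted p = 0.0916, limma), and with an offset of 50 it was 0.40 (adjusted p = 0.0574). The call also ended in the authors' processed values (0.69, adjusted p = 0.0501), with cyclic loess (0.56, adjusted p = 0.0572), with median scaling (0.85, adjusted p = 0.0619) and with a trended and robust prior (adjusted p = 0.063). It ended whichever array was left out (adjusted p = 0.0585 to 0.172). With median scaling, Il1rap was at 0.51 relative to the median of all genes, which itself moved to 0.34.

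**Figure D2:**
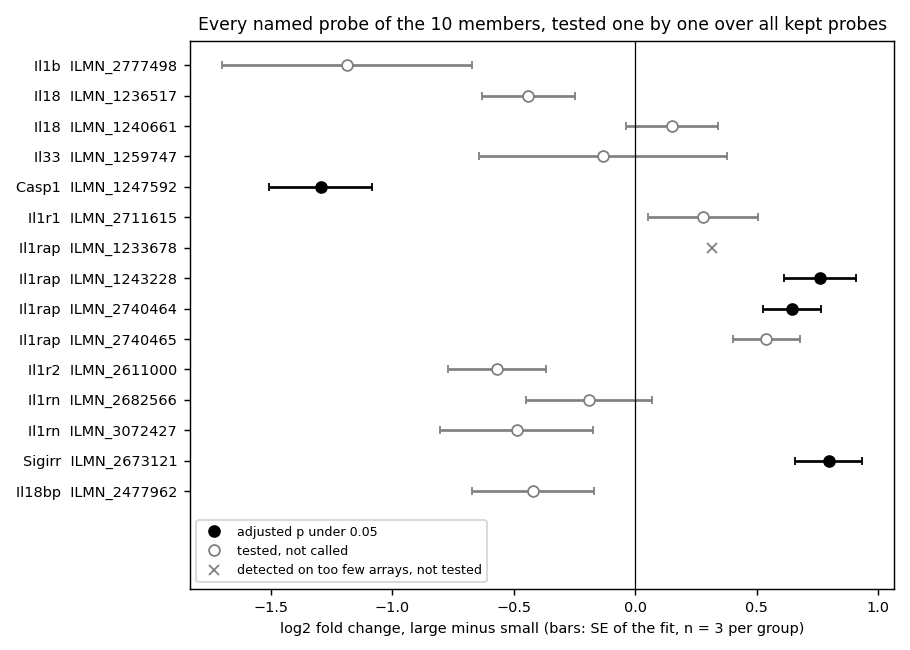
Log2 fold change of large minus small tumors (x axis, bars are the SE of the fit, n = 3 per group) for the 15 named probes of the members (y axis). Filled points passed an adjusted p of 0.05 over all kept probes, and the cross marks a probe not tested. The 4 probes of Il1rap lie on the right of 0, and those of Casp1, Il1b, Il1r2 and Il1rn lie on the left.

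Il1r1 encodes the signalling receptor of interleukin-1. It was detected in all 3 large tumors and in 1 small tumor. Its log2 intensity was 5.47, 5.21 and 4.98 in large tumors and 4.74, 5.40 and 4.68 in small ones, and the groups overlapped through small replicate 2. The log2 fold change was 0.28 ± 0.23 (adjusted p = 0.505, limma). It was 0.51 without small replicate 2, 0.15 without large replicate 1 or small replicate 3, and 0.18 without small replicate 1.

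Sigirr encodes a receptor of the family that lacks ligand-driven signalling of its own and damps interleukin-1 and Toll-like receptor responses. Its log2 intensity (probe ILMN_2673121) was 7.52, 7.76 and 7.93 in large tumors and 6.99, 6.86 and 6.97 in small ones. Every large tumor lay above every small one, and the rise was 1.74-fold (adjusted p = 0.0399, limma), with an interval of 0.48 to 1.11. The deposited signals also did not overlap, at 311, 362 and 364 in large tumors and 157, 207 and 218 in small ones. Those signals are not normalized, and every large array was brighter, with medians of 117 to 128 beside 104 to 115 for small tumors. With no background correction the rise was 0.50 (adjusted p = 0.0335), and in the authors' processed values it was 0.92 (adjusted p = 0.0255). It did not pass when any 1 array was left out (log2 fold change 0.70 to 0.91, adjusted p = 0.0606 to 0.157).

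Il1r2 encodes the decoy receptor, which binds interleukin-1 and does not signal. It was detected on 2 large and 3 small arrays. Its log2 intensity was 5.19, 4.85 and 5.11 in large tumors and 5.38, 5.45 and 6.04 in small ones. The groups did not overlap, yet the difference of -0.57 ± 0.20 did not pass (adjusted p = 0.166, limma). With no background correction it was -0.18, and without small replicate 3 it was -0.36. In all, 4 of the 10 members had groups that did not overlap, 2 in each direction, beside 29.6% of all genes tested, 16.1% higher and 13.6% lower. Without small replicate 2 there were 8 of the 10, 3 higher and 5 lower, beside 44.1% of all genes, 22.9% higher and 21.2% lower.

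Il1rn encodes the receptor antagonist, which occupies the interleukin-1 receptor without activating it. The brighter of its 2 probes was at 7.93, 7.29 and 7.77 in large tumors and 8.38, 7.46 and 8.62 in small ones. Small replicates 1 and 3 lay above the large group, and small replicate 2 lay within it. The log2 fold changes of the probes were -0.49 ± 0.32 (adjusted p = 0.41, limma) and -0.19 ± 0.26 in the probe fit. The first was -0.83 without small replicate 2, -0.30 without large replicate 2 and -0.26 without small replicate 3. Il18bp, the soluble neutralizer of interleukin-18, was at 6.02, 5.96 and 5.88 in large tumors and 6.90, 5.84 and 6.39 in small ones. Its log2 fold change was -0.42 ± 0.25 (adjusted p = 0.372, limma), and small replicate 2 lay below every large tumor. Without small replicate 1 it was -0.16 and without small replicate 2 it was -0.69.

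Differences between a ligand and its inhibitor were taken within each array on the log2 scale. Il1b minus Il1rn was -0.82, -0.80 and -1.28 in large tumors and -0.39, -0.75 and 0.32 in small ones, a shift of -0.70. The groups did not overlap, and the two-sided exact permutation p was 0.1, the smallest that 3 against 3 allows (adjusted p = 0.3 over 3 differences). Il18 minus Il18bp was 0.17 ± 0.31 (SD, n = 3) in large and 0.19 ± 0.43 (SD, n = 3) in small tumors, with overlapping groups and an exact permutation p of 1. Il1r1 minus Il1r2 shifted by 0.85 and its groups did not overlap apart from small replicate 2 (exact permutation p = 0.2, adjusted p = 0.3).

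Of 23 listed inflammasome and processing genes 10 were tested, 9 of them negative, and 1 fell (background 1.68%), with a median of -0.30 and, without small replicate 1, of -0.19. The one that fell was Casp4, which in mice encodes the protease of the noncanonical inflammasome also called caspase-11. Its log2 intensity was 6.38, 6.38 and 6.71 in large tumors and 7.63, 7.37 and 7.57 in small ones, with no overlap. It fell by 1.04 ± 0.14 (adjusted p = 0.0324, limma), and with no background correction the value was -0.59 (adjusted p = 0.0215). It was called in 11 of 18 alternatives, and with median scaling the call ended (-0.70, adjusted p = 0.0925). Gsdmd, the pore-forming protein that these caspases cut, was at 6.96, 6.95 and 6.88 in large tumors and 8.28, 7.54 and 7.96 in small ones. Its groups did not overlap, and its level, 1 log2 unit lower in large tumors (SE 0.19), missed the threshold (adjusted p = 0.0513). It passed in 8 of 18 alternatives, among them no background correction (-0.64, adjusted p = 0.0417) and cyclic loess (-1.06, adjusted p = 0.0403). Naip5, a sensor of bacterial flagellin, was detected in no large tumor and was at least 1.24-fold lower there, without passing (adjusted p = 0.18). It entered the test only through the small tumors, the group where it was high. Pycard, the adaptor that joins sensors to caspase-1, was at -0.47 ± 0.19 (adjusted p = 0.215). With median scaling 5 of the 10 were negative and the list median was -0.43 relative to that of all genes. Leaving out small replicate 2 gave 2 calls, Casp4 and Gsdmd, beside 300 over all genes. Leaving out any other array gave 0, beside 0 to 85 over all genes (limma).

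Of 22 listed genes of interleukin-1 and interleukin-18 receptor signalling 19 were tested and 0 were called (limma), with 15 negative and a median of -0.19. Without small replicate 2, 1 of them, Irak3, was called, beside 300 over all genes. With median scaling 6 of the 19 were negative, the median being 0.14, which is -0.19 relative to that of all genes. The smallest p belonged to Myd88, the adaptor that carries the signal from the receptors, at -0.56 ± 0.16 (adjusted p = 0.112). Irak3, a kinase-like brake on this signal, was at -0.79 ± 0.23 (adjusted p = 0.119) and Tnfaip3, an NF-kB target that limits NF-kB, was at -0.33 ± 0.12 (adjusted p = 0.166). Among 16 other ligands and receptors of the family 3 were tested and 0 were called (limma). Il18rap, the accessory chain of the interleukin-18 receptor, was detected in all 3 large and in no small tumor and was at least 1.12-fold higher in large (adjusted p = 0.0801). It entered the test only through the large tumors, the group where it was high. Il1f10 was at 0.26 ± 0.16 (adjusted p = 0.369) and Il1f5 at 0.01 ± 0.45 (adjusted p = 0.997).

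**Figure D3:**
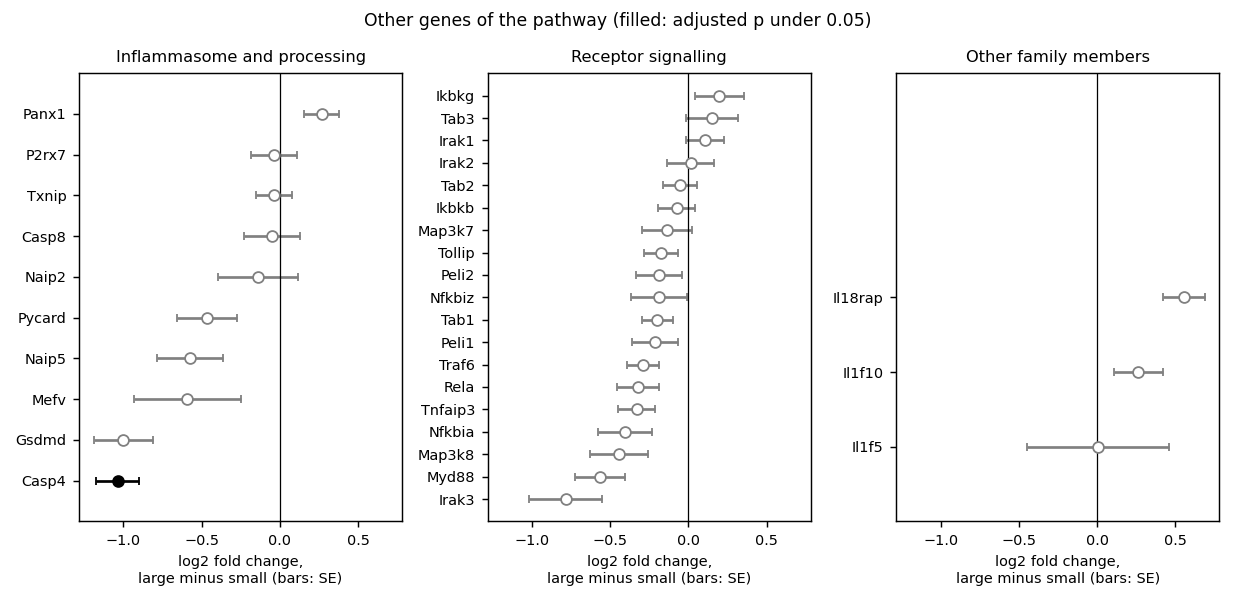
Log2 fold change of large minus small tumors (x axis, bars are the SE of the fit, n = 3 per group) for the tested genes (y axis) of 3 pathway lists outside the members. The filled point, Casp4, passed an adjusted p of 0.05, and Gsdmd, not filled, lies next to it.

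Casp1 belongs to the genes that interferon-gamma can induce, and values of that response are set beside it. Of 19 tested interferon-gamma response genes 15 fell (background 1.68%), with a median of -1.99. The count was 0 when large replicate 1, large replicate 3 or small replicate 3 was left out. Those fits called 0, 0 and 1 of all 10523 genes, so their zeros cannot tell this list from the rest. Dropping large replicate 2 gave 3 of 29 calls over all genes. The list held 15 of 85 calls after small replicate 1 was dropped, and 9 of 300 after small replicate 2 was (limma). All 19 were negative in each of the 6 fits that left out 1 array, with a median of -2.34 to -1.69. Their centred mean was -1.07, -1.13 and -0.71 in large tumors and 0.40, 1.12 and 1.39 in small ones. Psmb8, Psmb10 and Irf8, those with the smallest p, were at -1.62 ± 0.13, -1.30 ± 0.11 and -1.51 ± 0.13 (adjusted p = 0.0161 for each, limma). Gbp5, among those that fell, was detected in no large tumor and entered the test only through the small ones. Large replicate 2 was the lowest large tumor and small replicate 3 the highest small tumor both for this list and for Casp1. The other extremes differed. The highest large tumor was replicate 3 for the list and replicate 1 for Casp1, and the lowest small tumor was replicate 1 for the list and replicate 2 for Casp1. The part of this response in the Casp1 value was not tested.

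Cell type markers were set beside these results. Of the labelled tissue, all 11 melanoma cell markers were tested and Pmel, Dct and Mlana stood at 14.9, 14.8 and 14.6 in large tumors and 14.8, 14.7 and 14.3 in small ones (mean log2 intensity). Macrophage and monocyte markers, 14 of 18 tested, had centred means of -0.03, -0.41 and -0.39 in large tumors and 0.56, -0.17 and 0.44 in small ones. Their summed intensity ranged from 17818 to 24221 in large and from 19842 to 29445 in small tumors. Lyz1, Lyz2 and C1qb were the brightest of them. Small replicate 2 was the lowest small tumor for these markers, for the neutrophil, fibroblast, endothelial and dendritic cell markers, and for 7 members, Casp1, Il1b, Il33, Il1rap, Il1rn, Sigirr and Il18bp. T cell markers (7 of 14 tested, summed intensity 2460 to 2800.4 in large and 2225 to 2889 in small), NK cell markers (3 of 11, 688 to 1212 and 1323 to 1837) and dendritic cell markers (6 of 11, 1187 to 1606 and 3745 to 5813) were at lower centred means in every large tumor. The T cell sums overlapped and were mostly Cd8b1, the brightest, with a log2 fold change of 0.25 ± 0.14. The other 6 T cell markers were negative. Skeletal muscle markers (14 of 15 tested, 13 of which fell) had summed intensities of 15605 to 22227 in large and 46752 to 65048 in small tumors. Markers not tested had no named probe or were detected on fewer than 3 arrays. In whole tumors, fewer cells of a type and less RNA per cell cannot be told apart, and the part of these cells in the members' values was not tested.

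Neutrophil markers (6 of 15 tested) had summed intensities of 570 to 4716 in large and 599 to 926 in small tumors, with large replicate 1 highest. The markers differed in sign, and 0 were called (limma). S100a8, S100a9 and Mmp9 had log2 fold changes of 2.18, 1.35 and 1.12, and Hdc, Retnlg and Csf3r of -1.28, -0.90 and -0.42. Fibroblast markers (10 of 11, 4089 to 7115 and 4489 to 6883), endothelial markers (10 of 10, 8731 to 12185 and 9541 to 12916) and mast cell markers (5 of 7, 259 to 306.0 and 214 to 328) overlapped between groups, as did the keratinocyte markers (12 of 18, 728 to 67969 and 354 to 44175). Adipocyte markers (5 of 10) summed to 1590.0 to 2385 in large and 2755 to 3302 in small tumors. The brightest markers were S100a8, Mmp9 and Hdc for neutrophils, Krt14, Krt17 and Krt10 for keratinocytes, Thy1, Dcn and Col1a1 for fibroblasts, and Egfl7, Esam and Emcn for endothelium. They were Cd8b1, Cd3d and Cd3e for T cells, Prf1, Nkg7 and Klrd1 for NK cells, and H2-Ab1, Zbtb46 and Batf3 for dendritic cells. They were Acta1, Myl1 and Atp2a1 for muscle, Lpl, Plin4 and Adipoq for adipocytes, and Mcpt4, Cpa3 and Cma1 for mast cells.

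**Figure D4:**
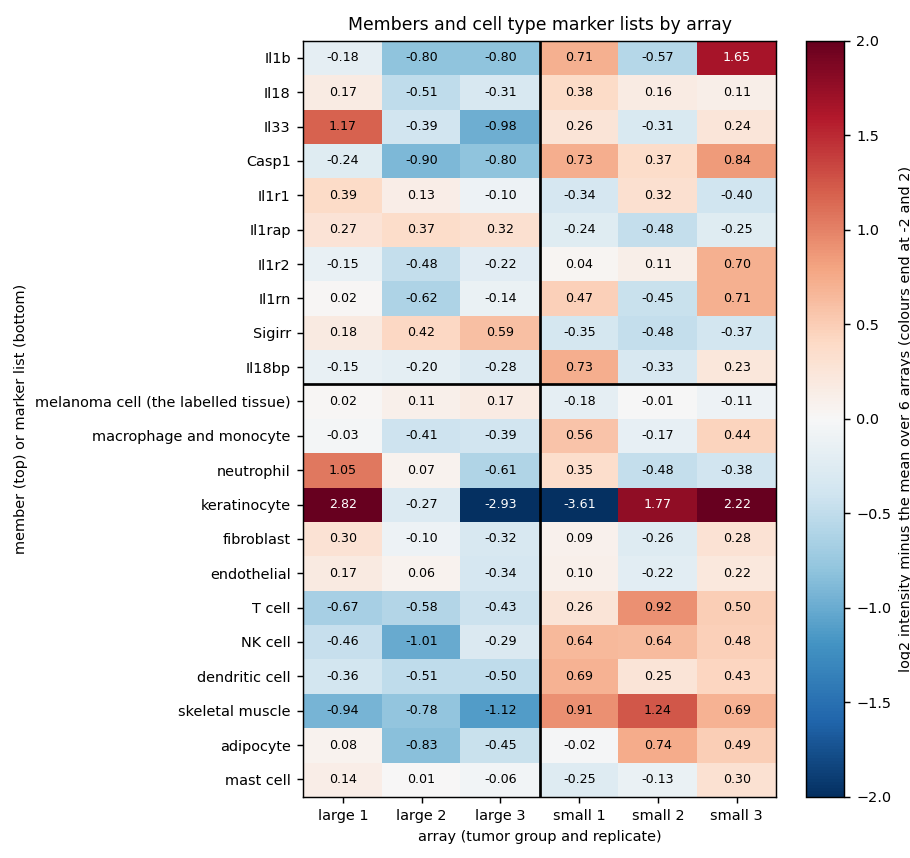
Members (upper rows) and cell type marker lists (lower rows) on the 6 arrays (columns), as log2 intensity minus the mean over all arrays, averaged over the tested genes of each list. The colour scale ends at -2 and 2. Il33 is highest in large replicate 1 (1.17), where the keratinocyte list is at 2.82 and the neutrophil list at 1.05. Il1b is highest in small replicate 3 (1.65).

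The genes whose log2 intensities over the 6 arrays were most like those of a called member were listed as a description. For Casp1 these were Dtx2, Gm18852 and Ccl2 (Pearson's r 0.997, 0.996 and 0.995). For Il1rap they were Tars2, Slc37a2 and Mfng (0.999, 0.996 and 0.994), and for Sigirr they were Sesn2, Lrp6 and Hnrnpa2b1 (0.996, 0.996 and 0.994). The points are the same 6 arrays in 2 groups, and the genes were picked for the highest r of 10523.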

How the data were processed

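RNA of 3 large and 3 small tumors was read on 1 Illumina bead array each. Per the labels' protocols, 100 ng of total RNA was amplified and labelled with biotin. The deposited signals are intensity on a linear scale with no background subtracted, per the file headers, made in GenomeStudio per the submitters' processing notes (its version is not given in the sources used here). A detection p-value per probe and array was deposited beside them, per the file headers. Another table, deposited too, gives intensity as the authors processed it, for 20346 of 45281 probes. Its background correction and normalization are unknown, its lowest value is 28.8, and it served as 1 of the alternatives.

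Signals were corrected, quantile-normalized and put on a log2 scale by neqc from limma 3.58.1, run in R 4.3.3 (offset 16, background from the detection p-values). Kept probes (19120) had 3 or more arrays with a detection p-value below 0.05. A probe detected only in the 3 tumors of a group was therefore kept through that group alone. Array annotation named the probes of the authors' table only, so other probes of the members were not analysed here. The probe with the highest mean stood for a gene, which gave 10523 genes. Groups were compared with lmFit and eBayes over all genes. Where no array of a group detected a probe, a fold is a bound, set by each array's dimmest detected probe. The fit was run on simulated data with planted changes. The pass rule covered only the signs of those changes, not calls near the threshold. The number of arrays limits the precision.

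Members, lists and rules were chosen with earlier results of these data known. The rule named all members, and the called genes and the 3 with the smallest p of each pathway list. It also named the 3 brightest of each marker list and the 3 genes most like each called member. The remaining called interferon-gamma response genes were counted and, apart from Gbp5, not named. Pycard was named outside the rule after its values were seen. Promoters came from RefSeq (GRCm38.p6); that of Il1rap was printed in place of Il18bp after values were seen, and planned protein sequences were not used here. Alternatives covered 4 normalizations, the authors' table, detection filters, probe rules, prior, weights, replicate block and leaving out arrays.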

Additional observations from a re-analysis of the deposited data

How the results depend on the processing

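Of 186 recomputed values of the 10 members under 19 alternatives, 156 kept their sign and their side of the threshold, 27 kept the sign and lost the call, and 3 turned the sign. These 3 were all of Il33, which was at 0.24 with median scaling, 0.03 without large replicate 2 and 0.33 without large replicate 3. Its range over single arrays left out was -0.75 to 0.33. With median scaling Il33 was at -0.10 relative to the median of all genes, so relative to that its sign did not turn. Casp1 and Sigirr were each called in 12 of 19 alternatives and Il1rap in 6. The members called were 1 with median scaling and 0 with the replicate number as a block, and 0 to 1 when each array was left out in turn. Whether the replicate numbers pair the samples was not stated. Same-numbered tumors deviated from their group means with correlations of -0.55, -0.07 and -0.45 across genes. No array correlated best with its own number. Deviations within a group of 3 arrays depend on each other, so these correlations cannot decide whether the samples were paired. With that replicate block 109 genes were called, 7 higher and 102 lower.

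Over all genes, 260 were called. The count was 408 with no background correction, 162 with median scaling, 402 when detected on all 6 arrays, 557 of 19120 with every probe on its own, 656 with a trended and robust prior and 574 with array weights. Genes called higher were 182 with no background correction, 147 with an offset of 50, 169 when detected on all arrays, 244 with every probe, 309 with the trended prior and 256 with array weights. Genes called lower were 66 with median scaling, 313 with every probe, 347 with the trended prior and 318 with array weights. With each array left out in turn, 0 to 300 genes were called, 0 to 77 higher and 0 to 223 lower (limma, 1591 to 2600 at an unadjusted p under 0.05). Without an array 5 remain, and otherwise the cause of these changes was not tested. Dim probes limit the values of Il1r1, Il1r2 and Il1rap, which were near background in at least 1 group. Il1r1 and Il1r2 had no value under the stricter detection filters.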

Other observations

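Large replicate 1 and small replicate 2 stood out among the arrays for these genes. Large replicate 1 held the highest of the 3 large values for 8 of the 10 members, where 32.3% of all genes had their highest large value. Small replicate 2 held the lowest of the 3 small values for 7 members, where 33.3% of all genes had theirs. Without small replicate 2, 8 members did not overlap between groups, beside 44.1% of all genes. Il1b, Il1r1, Il1rn and Il18bp were those that then joined Casp1, Il1rap, Il1r2 and Sigirr. Of the 10 members, 5 then did not overlap and were lower in large tumors, beside 21.2% of all genes. Another 3 were higher, beside 22.9% of all genes. Without large replicate 1, 7 members did not overlap, beside 43.6% of all genes, and Il18 and Il33 were among them. These counts were looked for after the values were seen, members share arrays, and no test was made of them.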
